A study of Mus musculus with 6 samples.

Results

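DEAD and DEAH box RNA helicases were compared between AMPK knockout (KO) and wild-type (WT) leukaemia cells. Members were taken by name, as every gene whose symbol starts with Ddx or Dhx and a digit, leaving out the viral RNA sensors Ddx58 and Dhx58 and all pseudogenes. The rule found 53 of the 47643 genes in the expression table, 16 with a known role in ribosome assembly in the nucleolus and 37 others. One of the 53, Dhx58os, is an antisense transcript and no helicase, and another, Ddx26b, carries the name but is related to a subunit of the Integrator complex.

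RNA helicases of these families use ATP to pry apart short RNA duplexes or to strip proteins from RNA. DEAD box proteins act locally, opening a duplex or clamping onto RNA, whereas DEAH box proteins pull on one strand from its end, and many of them need an activator with a G-patch. Ribosome assembly employs more of them than any other process, since pre-ribosomal RNA must be folded, freed of small nucleolar RNAs and cut in order, and the spliceosome employs another set to drive its rearrangements.

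RNA was sequenced from sorted leukaemic GMP cells of C57BL/6 mice, that is, leukaemia cells with the surface profile of the progenitor that gives rise to granulocytes and macrophages. There were 3 libraries labelled wild type and 3 labelled as a double knockout of Prkaa1 and Prkaa2, which encode the catalytic subunits of the energy sensor AMPK. The single comparison asks how transcripts differ between the genotypes. The labels give no driver oncogene, no deleter strain, no age and no number of mice. Values are FPKM, read numbers scaled by gene length and by library, so levels can be compared between genes, and folds are ratios of mean FPKM. Log2 changes are KO minus WT on log2(FPKM + 1), a scale on which folds of scarce transcripts look smaller than they are. Only genes averaging 1 FPKM or more over the 6 libraries were tested, and higher or lower means a limma adjusted p under 0.05.

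Both families are named after motif II of the helicase core, which holds the residues that bind magnesium and hydrolyse ATP. The coding bases around it are shown for members the results turn on and for some with a variant motif, from the GENCODE M21 transcripts on mm10, 36 bases in coding direction with the 4 codons of motif II in capitals. The first 5 are the nucleolar helicases with the largest falls on the log2 scale, followed by the paralogues Ddx21, Ddx50, Ddx39 and Ddx39b, Ddx52, the pair Ddx5 and Ddx17, and 3 DEAH box members.
Ddx10 (chr9:53233989-53235269, minus strand, across a splice junction): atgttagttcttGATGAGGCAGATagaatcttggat
Ddx56 (chr11:6266547-6266582, minus strand): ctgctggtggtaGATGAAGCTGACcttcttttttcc
Ddx55 (chr5:124558119-124558154, plus strand): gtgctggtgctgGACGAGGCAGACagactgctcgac
Ddx31 (chr2:28858830-28858997, plus strand, across a splice junction): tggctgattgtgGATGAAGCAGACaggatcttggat
Ddx18 (chr1:121561327-121561362, minus strand): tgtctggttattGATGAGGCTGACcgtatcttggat
Ddx21 (chr10:62591869-62591904, minus strand): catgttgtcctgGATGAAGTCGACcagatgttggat
Ddx50 (chr10:62640499-62640534, minus strand): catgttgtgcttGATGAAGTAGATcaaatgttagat
Ddx52 (chr11:83952119-83952154, plus strand): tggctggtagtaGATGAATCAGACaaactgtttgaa
Ddx39 (chr8:83721098-83721133, plus strand): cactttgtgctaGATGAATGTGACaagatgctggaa
Ddx39b (chr17:35247078-35247113, plus strand): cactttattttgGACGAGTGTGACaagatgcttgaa
Ddx5 (chr11:106785181-106785216, minus strand): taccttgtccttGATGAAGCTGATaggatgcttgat
Ddx17 (chr15:79538863-79538898, minus strand): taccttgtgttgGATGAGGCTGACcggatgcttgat
Dhx37 (chr5:125426705-125426740, minus strand): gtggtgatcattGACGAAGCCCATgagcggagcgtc
Dhx35 (chr2:158818263-158818298, plus strand): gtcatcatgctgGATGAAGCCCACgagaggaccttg
Dhx8 (chr11:101752128-101752163, plus strand): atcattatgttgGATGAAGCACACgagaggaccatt

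A pattern search found motif II in 47 of the 52 members with a coding transcript. Of these, 26 Ddx genes encode the DEAD motif itself and 8 Dhx genes the DEAH motif. The variants were DEVD in 3 (Ddx21, Ddx50 and Ddx28), DECD in 2 (Ddx39 and Ddx39b), DESD in 1 (Ddx52), DEVH in 1 Ddx gene (Ddx60) and in 4 Dhx genes, and DEIH in 2 Dhx genes. The pattern had no match in Ddx1, Ddx11, Ddx26b, Ddx51 and Dhx32, which says only that it was not found in the transcript searched.

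RNA of Prkaa1, targeted in KO, was at 2.01, 2.20 and 1.80 FPKM in WT replicates 1, 2 and 3 and at 1.11, 0.735 and 0.548 in the KO replicates, without overlap between the genotypes. Such a lack of overlap was common, holding for 7344 of all 9108 tested genes, 14 of 15 tested nucleolar members and 17 of 26 other tested members. Prkaa2 had 2 reads over the WT libraries and 4 over the KO libraries, too few to check the label. Whole reads recovered from the FPKM values came to between 11390516 and 16416154 a library. Genes above 0 numbered 15956 to 16466 in the WT libraries and 14560 to 14691 in the KO libraries, although WT replicate 1 had the fewest reads. Whether this bears on weak members was not tested. FPKM sums were 463683 to 475654 in WT and 649611 to 653819 in KO, so class counts and medians, and single members whose call or sign turned, are also given with libraries rescaled to equal sums. Rescaling moved the median log2 change of all 9108 tested genes from -0.02 to -0.41. Among 8 markers of granulocyte-macrophage progenitors, Kit was at 0.250 FPKM in WT and 1.43 in KO and was not tested. Of the 7 others 5 were higher in KO and 2 lower, Cd34 (27.8 to 3.51 FPKM) and Fcgr3 (129 to 66.8 FPKM). With libraries rescaled to equal sums 3 were higher and 3 lower. The 8 summed to 7828 to 8129 FPKM in WT and 16707 to 17002 in KO, most of it Ctsg and Elane. Mature neutrophil markers summed to 317 to 332 FPKM in WT and 71422 to 72818 in KO, most of it S100a8 (205 and 52072 FPKM). All 7 tested of 10 were higher in KO, beside 38.0% of all tested genes. With libraries rescaled to equal sums 6 were, beside 22.8%, and Camp (6.74 to 10.3 FPKM as deposited) did not pass. Of the 3 not tested, Mmp9 had 9 reads in WT and 0 in KO, while Cxcr2 and Retnlg had more reads in KO. Eosinophil, basophil and mast cell markers summed to 32.9 to 39.0 and 552 to 581 FPKM, all 8 tested of 10 higher, with Il5ra at 0. Erythroid markers summed to 12.3 to 15.1 and 79.2 to 83.6 FPKM, all 6 tested of 10 higher, and Gata1, at 0 in WT, had 1698 reads in KO. Of the tested markers, 1 of the neutrophil, 4 of the eosinophil, basophil and mast cell and 3 of the erythroid genes had a WT mean under 1 FPKM and reached the minimum through KO, so that those genes could only come out higher. Monocyte and macrophage markers went from 382 to 398 down to 119 to 129 FPKM, nearly all of it Ly6c2, the 1 lower gene of 3 tested, while Adgre1 and Fcgr1 were higher, Fcgr1 having reached the minimum through KO. B cell markers went from 51.5 to 56.8 down to 1.94 to 3.25, nearly all of it Cd79b, with Pax5 at 0. T cell markers lay at 2.12 to 2.26 and 0.709 to 1.23 FPKM, with Cd3e, Cd3g and Cd8a at 0, and stem cell markers at 0.337 to 0.605 and 1.49 to 1.87. The part of these shifts in the helicase results was not tested.

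Most helicase transcripts were less abundant in KO, and the nucleolar ones had the lowest median change. Of 41 members tested, 28 were lower in KO, 2 were higher (Ddx17 and Dhx37) and 11 did not pass, while of all 9108 genes tested 40.4% were lower and 38.0% were higher. The median log2 change was -0.44 over the tested members, against -0.02 over all tested genes. In the nucleolar class 13 of 15 tested were lower, 1 was higher and 1 did not pass, with a median of -1.13. In the other classes 15 of 26 tested were lower, 1 was higher and 10 did not pass, with a median of -0.30. With libraries rescaled to equal sums, 59.1% of all genes were lower and 22.8% were higher, and the nucleolar class then had 14 lower and 0 higher (median -1.54) and the other classes 24 lower and 1 higher (median -0.65). Of the tested members, Ddx10, Ddx55 and Dhx35 had a KO mean under 1 FPKM and reached the minimum through WT, so these counts are a description of the members that could be tested. In bulk RNA, fewer cells of a type and less RNA per cell cannot be told apart.

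Summed over the 16 nucleolar members, transcript levels were 421, 413 and 435 FPKM in WT and 164, 153 and 163 in KO, 2.65-fold lower. The other 37 members summed to 686, 685 and 697 FPKM in WT and 419, 431 and 429 in KO, 1.62-fold lower. The nucleolar members therefore made up 38.0, 37.6 and 38.4% of helicase FPKM in the WT libraries and 28.1, 26.3 and 27.5% in the KO libraries, a share that no rescaling of a library alters. Ddx56 and Ddx39, the most abundant nucleolar and other member, were then left out, a choice made after their values were seen. Without Ddx56 the share was 24.2 to 24.6% in WT and 20.1 to 21.4% in KO, a smaller difference with no overlap. Without Ddx39 it was 52.6 to 53.5% and 35.3 to 37.8%, and without both it was 37.1 to 37.4% and 27.7 to 29.8%.

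**Figure D1:**
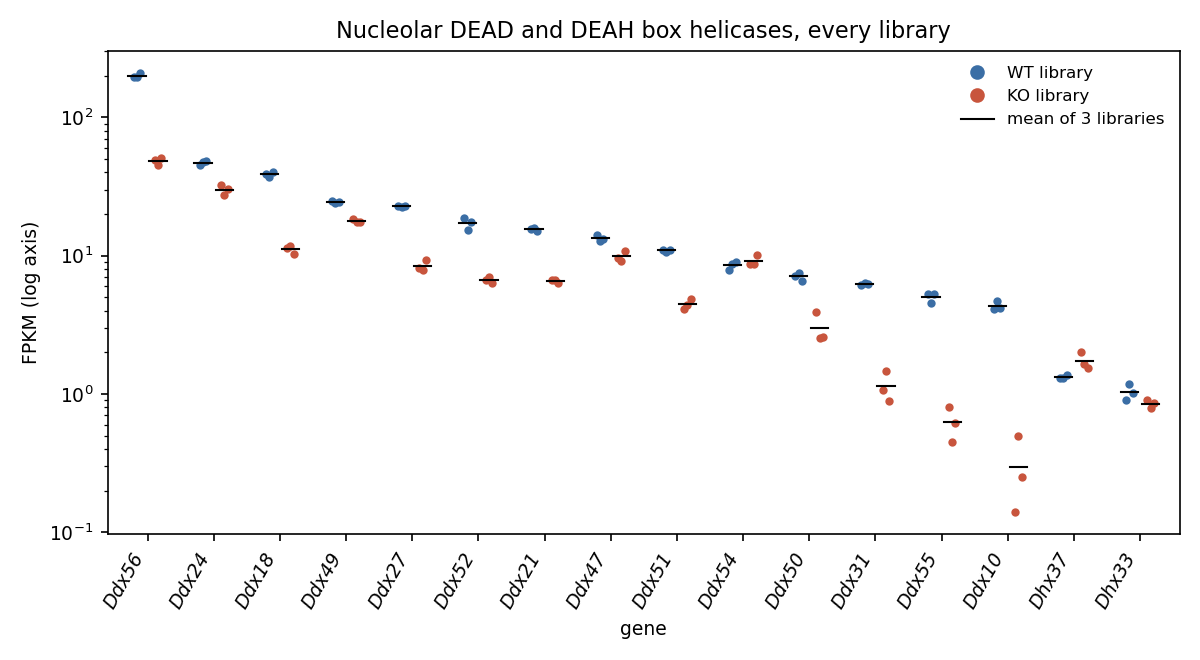
FPKM (log axis) of the 16 nucleolar helicase genes, ordered by WT mean, with each of the 3 WT and 3 KO libraries as a point and the mean of 3 libraries as a line. The groups lie far apart for Ddx56, Ddx18, Ddx31, Ddx55 and Ddx10, overlap for Ddx54, and are inverted, with KO above WT, for Dhx37.

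Large-subunit assembly helicases held the most abundant nucleolar member. Ddx56 (ENSMUSG00000004393, chr11:6258919-6267772) was at 197, 194 and 209 FPKM in WT and 49.1, 45.3 and 50.5 in KO. Every KO library lay far below every WT library, 4.14-fold by the means (200 ± 8.27 against 48.3 ± 2.69 FPKM, SD, n = 3 each; log2 change -2.03, SE 0.05, limma adjusted p = 3.75e-08). Ddx18, which helps to fold early large-subunit precursors, was at 38.9, 36.9 and 40.2 FPKM in WT and 11.4, 11.8 and 10.3 in KO. Its groups were far apart, 3.47-fold (log2 change -1.71, SE 0.06, adjusted p = 2.05e-07). Ddx27, which works with the complex of Pes1, Bop1 and Wdr12 in maturing the large subunit, was at 22.7, 22.3 and 22.9 FPKM in WT and 8.11, 7.88 and 9.29 in KO, with no overlap (log2 change -1.33, SE 0.06). Ddx24 was at 45.0, 47.6 and 48.2 FPKM in WT and 32.2, 27.4 and 30.2 in KO, a milder fall of 1.57-fold without overlap (log2 change -0.63, SE 0.06, adjusted p = 4.83e-05).

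Among the scarcer helicases of large-subunit assembly, Ddx55 and Ddx31 fell by the largest factors. Ddx55 (chr5:124552864-124569660) was at 5.28, 4.56 and 5.24 FPKM in WT and 0.811, 0.447 and 0.613 in KO. The KO libraries, which held 124 reads against 1185 in WT, were all below 1 FPKM, 8.06-fold lower (log2 change -1.90, SE 0.11, adjusted p = 2.39e-06). Ddx31 was at 6.12, 6.35 and 6.22 FPKM in WT and 1.06, 1.46 and 0.897 in KO, 5.46-fold lower (log2 change -1.76, SE 0.11). The WT libraries of Ddx31 varied little (SD 0.113 FPKM), whereas KO replicate 2 stood above the other KO libraries. Ddx51, which releases the U8 small nucleolar RNA from the large-subunit precursor, was at 11.0, 10.7 and 11.1 FPKM in WT and 4.13, 4.38 and 4.89 in KO (log2 change -1.13, SE 0.07). Ddx54 was the exception, at 7.82, 8.69 and 8.93 FPKM in WT and 8.67, 8.75 and 10.1 in KO. Its groups overlapped and it did not pass (log2 change 0.10, SE 0.08, adjusted p = 0.272), and with libraries rescaled to equal sums it was called lower at -0.32. Of its exonic bases 15.5% are shared with other genes, and since the counting strand is not given, its level is uncertain.

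Among helicases of small-subunit assembly, Ddx10 (ENSMUSG00000053289, chr9:53098635-53248053, minus strand) had the largest fall of the tested members on the log2(FPKM + 1) scale. It was at 4.13, 4.66 and 4.19 FPKM in WT and at 0.139, 0.495 and 0.252 in KO, from 660 reads over WT and 36 over KO. All KO libraries were far below WT, 14.6-fold by the means (log2 change -2.05, SE 0.12, adjusted p = 2.49e-06), although they differed among themselves more than the WT libraries did in proportion. Ddx52 was at 18.7, 15.4 and 17.4 FPKM in WT and 6.64, 7.00 and 6.36 in KO, 2.58-fold lower with no overlap (log2 change -1.24, SE 0.08). Ddx47 was at 14.0, 12.7 and 13.1 FPKM in WT and 9.60, 9.19 and 10.8 in KO, a fall of 1.35-fold (log2 change -0.40, SE 0.07, adjusted p = 0.00142). Ddx49 was at 25.0, 23.9 and 24.3 FPKM in WT and 18.3, 17.6 and 17.4 in KO (log2 change -0.44, SE 0.04). Ddx49 shares 29.9% of its exonic bases with Homer3 on the opposite strand and is uncertain.

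The nucleolar class has 2 DEAH members, Dhx37 and Dhx33. Dhx37, which removes the U3 small nucleolar RNA from the small-subunit precursor, was at 1.30, 1.31 and 1.37 FPKM in WT and 2.01, 1.66 and 1.55 in KO. All KO libraries were above WT as deposited (log2 change 0.23, SE 0.09, adjusted p = 0.0432), but the sign turned to -0.05 with libraries rescaled to equal sums, and the call held in 4 of 13 alternatives, with adjusted p from 0.0206 to 0.605. Dhx33, which acts in transcription of ribosomal DNA, was at 0.910, 1.179 and 1.02 FPKM in WT and 0.904, 0.787 and 0.863 in KO. The groups touched almost without a gap, and its mean under 1 FPKM kept it out of the test.

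Nucleolar proteins of ribosome assembly that are no helicases were nearly all lower in KO. Of 32 tested of 34 listed, 31 were lower in KO, 0 were higher and Imp3 alone did not pass. The shares over all tested genes were 40.4% lower and 38.0% higher. The list had a median log2 change of -1.15 (rescaled -1.60). The largest falls were those of Pes1, at 50.2, 49.6 and 48.9 FPKM in WT and 8.09, 7.28 and 8.92 in KO (log2 change -2.48, adjusted p = 6.65e-08), and Wdr12, at 28.6, 28.6 and 29.1 FPKM in WT and 5.79, 5.80 and 6.40 in KO (log2 change -2.09, adjusted p = 4.18e-08). Both are members of the complex that works with Ddx27.

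MYC, a transcription factor known to drive genes of ribosome assembly, binds the E-box CACGTG, so promoters were searched for these letters, which read the same on both strands. RefSeq promoters (GRCm38.p6, the mm10 assembly), 250 bases before to 50 after the start of each transcript, were matched for 47 members. At least 1 promoter with the E-box was found for 1 of 16 nucleolar members and 6 of 31 others, counts that include members not tested. Counted by gene in the same way, the share was 12.49% of tested genes with a promoter, 14.32% of those called lower and 11.03% of those called higher. Counted by promoter, an unlike unit, it was 7.15% of all 32851 promoters. Upstream stretches are shown for Ddx10 and Ddx56, the nucleolar members with the largest falls on the log2(FPKM + 1) scale. Dhx33, the nucleolar member with a match, is shown with the E-box in capitals.
Ddx10 (chr9:53248113-53248362, minus strand): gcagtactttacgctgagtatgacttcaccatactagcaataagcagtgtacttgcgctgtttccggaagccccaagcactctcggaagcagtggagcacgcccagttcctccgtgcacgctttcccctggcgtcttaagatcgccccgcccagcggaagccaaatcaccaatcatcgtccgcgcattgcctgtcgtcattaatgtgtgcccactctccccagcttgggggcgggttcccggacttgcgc
Ddx56 (chr11:6267730-6267979, minus strand): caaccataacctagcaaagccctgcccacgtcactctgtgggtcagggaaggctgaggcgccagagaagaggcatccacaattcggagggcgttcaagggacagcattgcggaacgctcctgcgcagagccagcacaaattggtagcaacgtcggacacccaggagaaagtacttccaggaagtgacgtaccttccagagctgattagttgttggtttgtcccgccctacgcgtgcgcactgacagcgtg
Dhx33 (chr11:71004433-71004682, minus strand): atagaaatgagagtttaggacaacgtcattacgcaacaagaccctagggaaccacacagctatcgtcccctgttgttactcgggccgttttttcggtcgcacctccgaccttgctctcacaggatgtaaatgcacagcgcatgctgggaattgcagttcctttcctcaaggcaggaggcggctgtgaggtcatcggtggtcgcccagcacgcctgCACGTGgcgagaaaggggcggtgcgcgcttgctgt

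The match in Dhx33 begins at position -35 from the start, and Ddx10 and Ddx56 hold none in their windows. Among the other classes, matches were found for Dhx35 (at -140 and -90), Ddx42, Ddx5, Dhx40, Ddx4 and Ddx25. A match is a run of letters in this window and no measured binding, and its absence says nothing of sites elsewhere.

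**Figure D2:**
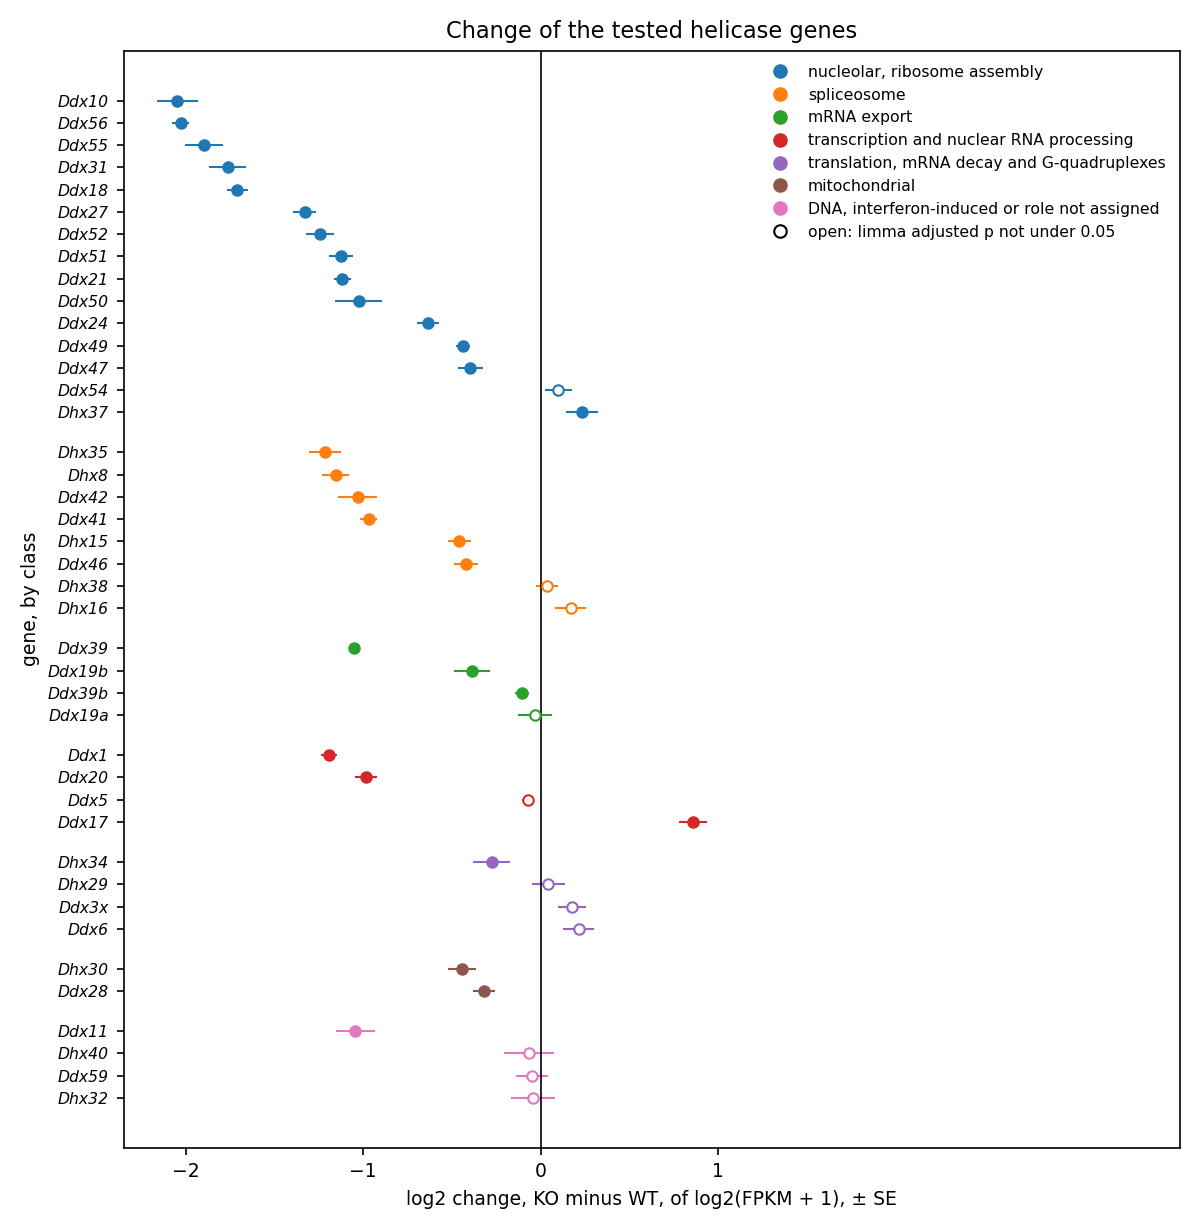
Log2 change (KO minus WT, of log2(FPKM + 1)) of the 41 tested helicase genes with standard errors, grouped and coloured by class, filled where the limma adjusted p was under 0.05 and open otherwise. Nucleolar genes reach -2.05, the spliceosomal class -1.22, and Ddx17 at 0.86 lies apart on the right.

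Helicases of the spliceosome had the next lowest median. Of 9 members 8 were tested. Of these 6 were lower in KO, 0 were higher and 2 did not pass, beside 40.4% lower and 38.0% higher of all tested genes. Their median log2 change was -0.71 (rescaled -1.11). Ddx41, the most abundant of them, joins the spliceosome late and is a known predisposition gene of human myeloid neoplasms. It was at 81.1, 81.3 and 86.7 FPKM in WT and 40.2, 44.2 and 41.3 in KO, 1.98-fold lower with no overlap (log2 change -0.97, SE 0.05, adjusted p = 9.67e-07). Overlap with another gene covers 17.4% of its exonic bases, so its level is uncertain. The largest fall was that of Dhx35, at 2.77, 2.64 and 2.22 FPKM in WT and 0.575, 0.458 and 0.538 in KO, 4.86-fold lower with the groups far apart (log2 change -1.22, SE 0.09, adjusted p = 1.13e-05). The other 4 that fell were Dhx8, Ddx42, Dhx15 and Ddx46, with log2 changes from -1.16 to -0.42.

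Dhx16 and Dhx38, which remodel the spliceosome before each chemical step of splicing, did not pass. Dhx16 was at 6.15 ± 0.614 FPKM in WT and 7.03 ± 0.567 in KO, and Dhx38 at 6.34 ± 0.223 and 6.53 ± 0.352, with overlapping libraries in both. Their log2 changes, 0.17 and 0.04, turned to -0.24 and -0.37 with libraries rescaled to equal sums, where both were called lower, whereas without WT replicate 2 Dhx16 was called higher (0.24, limma adjusted p = 0.0434). Ddx23, of the U5 particle, was at 0.856 FPKM in WT and 0.463 in KO and was not tested. Of spliceosomal proteins outside these families, 18 of 27 tested were lower, 4 were higher and 5 did not pass (median -0.40, rescaled -0.86). The shares over all tested genes were 40.4% lower and 38.0% higher. Sf3a3 (55.9 to 23.6 FPKM, log2 change -1.21) and Eftud2 (17.1 to 9.41, -0.80, with 26.9% of its exonic bases shared) had the largest falls. Cdc40 (2.49 to 5.01, 0.78) and Prpf4 (5.06 to 7.32, 0.46) had the largest rises, of which Prpf4 was not called with libraries rescaled to equal sums.

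In mRNA export, the closely related Ddx39 and Ddx39b changed by unequal amounts. Both load the export machinery onto spliced mRNA, and Ddx39 was the most abundant member in every library. Ddx39 (chr8:83715177-83726892) was at 308, 315 and 319 FPKM in WT and 150, 149 and 154 in KO. Its KO libraries lay far below WT and close to each other (log2 change -1.05, SE 0.02, limma adjusted p = 2.82e-08), though 17.4% of its exonic bases are shared with another gene. Ddx39b was at 54.1, 52.0 and 54.7 FPKM in WT and 48.4, 52.1 and 48.9 in KO, groups that overlapped. It was called lower by a narrow margin (log2 change -0.10, SE 0.04, adjusted p = 0.0460), and the call held in 6 of 14 alternatives, with adjusted p from 5.86e-06 to 0.987. The ratio of Ddx39 to Ddx39b was 5.69 to 6.06 in the WT libraries and 2.86 to 3.14 in the KO libraries, with no overlap.

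Ddx19a and Ddx19b, neighbours on chromosome 8, release export factors from mRNA at the nuclear pore with Gle1. Ddx19b was at 2.79, 2.84 and 2.09 FPKM in WT and 1.72, 1.69 and 1.74 in KO, all KO libraries below WT (log2 change -0.39, SE 0.10, adjusted p = 0.00938). Ddx19a was at 2.37, 1.85 and 2.30 FPKM in WT and 2.30, 2.05 and 1.93 in KO, with overlapping groups (log2 change -0.03, SE 0.10, adjusted p = 0.755), but was called lower at -0.36 with libraries rescaled to equal sums. The 36 coding bases around motif II are identical in both genes, so reads lying wholly within them cannot be told apart between the genes. Bases beyond this stretch were not compared.
Ddx19a and Ddx19b: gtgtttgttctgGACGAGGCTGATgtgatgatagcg

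How reads that fit both genes were counted is not given in the sources used here, so the split between Ddx19a and Ddx19b is uncertain. Their ratio was 0.652 to 1.10 in WT and 1.11 to 1.34 in KO, ranges separated by a narrow gap.

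**Figure D3:**
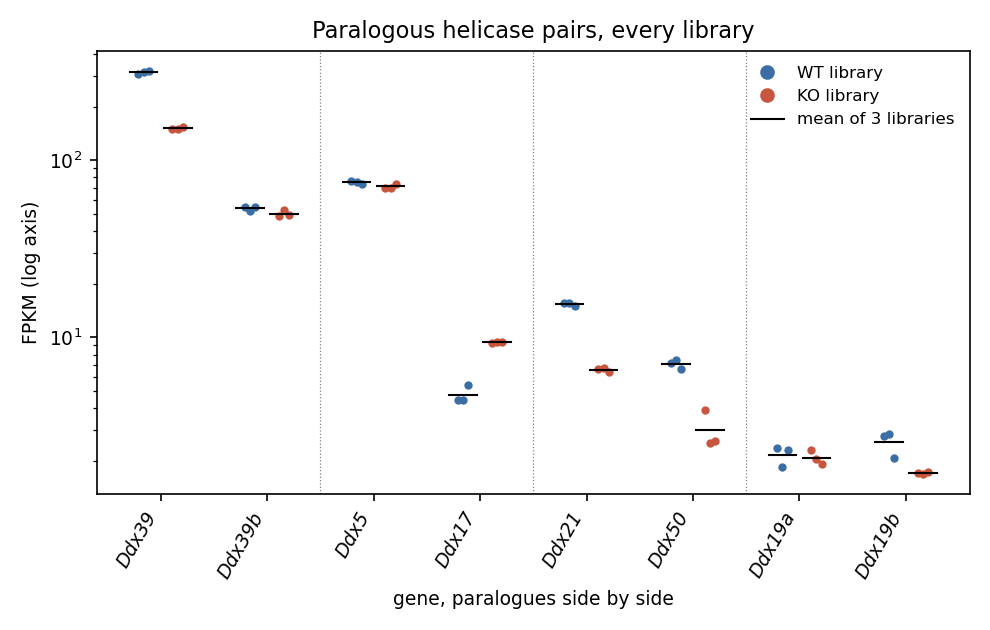
FPKM (log axis) of 4 pairs of paralogous helicase genes, with each of the 3 WT and 3 KO libraries as a point and the mean of 3 libraries as a line. As deposited, Ddx39 fell by 1.05 on the log2 scale and Ddx39b by 0.10, Ddx17 rose while Ddx5 did not pass, and Ddx21 and Ddx50 both fell.

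Ddx17 was the only member called higher both as deposited and with libraries rescaled to equal sums. Ddx5 and Ddx17 are coactivators of transcription and help the nuclease Drosha to process microRNA precursors. Ddx17 (ENSMUSG00000055065, chr15:79527736-79546741) was at 4.45, 4.42 and 5.38 FPKM in WT and 9.33, 9.45 and 9.37 in KO. The KO libraries were tightly grouped and all above WT, 1.98-fold (log2 change 0.86, SE 0.08, adjusted p = 3.24e-05; rescaled 0.45). Ddx5, far more abundant, was at 76.1, 74.9 and 73.7 FPKM in WT and 70.1, 70.0 and 73.6 in KO. Its groups nearly met and it did not pass (log2 change -0.07, SE 0.03, adjusted p = 0.0706), although it was called lower with libraries rescaled to equal sums (-0.54), by limma-voom on recovered reads (-0.07, adjusted p = 0.0296) and without KO replicate 3 (-0.09, adjusted p = 0.0281). The ratio of Ddx5 to Ddx17 was 13.7 to 17.1 in WT and 7.41 to 7.86 in KO.

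Ddx1 and Ddx20, also of nuclear RNA processing, fell. Ddx1, a subunit of the ligase complex that seals spliced tRNAs, was at 61.2, 56.8 and 56.5 FPKM in WT and 24.3, 26.1 and 24.3 in KO, 2.34-fold lower with no overlap (log2 change -1.19, SE 0.05, adjusted p = 3.83e-07). Ddx20, of the SMN complex that assembles spliceosomal particles, went from 7.36 ± 0.229 to 3.23 ± 0.137 FPKM (log2 change -0.98, SE 0.06). Dhx9 was at 0.680 FPKM in WT and 0.648 in KO and was not tested. As a class, 2 of 4 tested were lower, 1 was higher and 1 did not pass, beside 40.4% lower and 38.0% higher of all tested genes.

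The neighbours Ddx21 and Ddx50, on chromosome 10, both fell, with no overlap between genotypes in either. Ddx21, which couples transcription of ribosomal DNA to processing of its RNA, was at 15.6, 15.7 and 15.03 FPKM in WT and 6.64, 6.71 and 6.39 in KO (2.35-fold lower, log2 change -1.12, SE 0.05, adjusted p = 6.27e-07). Ddx50, its paralogue, was at 7.16, 7.48 and 6.59 FPKM in WT and 3.90, 2.53 and 2.60 in KO (2.35-fold lower, log2 change -1.03, SE 0.13, adjusted p = 0.000253). For Ddx50, KO replicate 1 stood above the other KO libraries. The ratio of Ddx21 to Ddx50 overlapped, at 2.10 to 2.28 in WT and 1.70 to 2.65 in KO.

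Among helicases of translation and mRNA decay, Dhx34 alone passed the test as deposited. Of 6 members 4 were tested, and 1 was lower, 0 were higher and 3 did not pass (median log2 change 0.11, rescaled -0.28). The shares over all tested genes were 40.4% lower and 38.0% higher. Ddx3x, which helps to start translation on structured mRNAs, was the most abundant, at 8.41, 9.45 and 8.21 FPKM in WT and 9.54, 9.39 and 10.9 in KO. The groups overlapped and it did not pass (log2 change 0.18, SE 0.08, adjusted p = 0.0746), and with libraries rescaled to equal sums it was called lower at -0.25. It was called higher by limma-voom on recovered reads (0.19, adjusted p = 0.0315), with quantile normalization (0.21, adjusted p = 0.0377) and without WT replicate 2 (0.23, adjusted p = 0.0419). Ddx3y, its counterpart on the Y chromosome, was at 0 in all 6 libraries, which allows up to 0.0128 FPKM in WT and 0.0155 in KO at 3 reads over a group. Dhx34, of nonsense-mediated decay, was at 2.26, 2.30 and 2.58 FPKM in WT and 1.63, 1.58 and 2.19 in KO, apart by a narrow gap (log2 change -0.28, SE 0.10, adjusted p = 0.0428). Its call held in 7 of 13 alternatives, with adjusted p from 0.000992 to 0.123. Ddx6, which represses and decays mRNA in P-bodies, was at 1.11 FPKM in WT and 1.45 in KO (log2 change 0.21, adjusted p = 0.0621; rescaled -0.05). Limma-voom on recovered reads called Ddx6 higher (0.40, adjusted p = 0.0325), as did limma without a mean-variance trend (0.21, adjusted p = 0.0297). Dhx29, a helper of the small subunit in initiation, was at 2.89 and 3.01 FPKM (log2 change 0.04; rescaled -0.31, called lower), and Dhx36, which unwinds G-quadruplexes, at 0.675 and 0.654 FPKM, was not tested.

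Both mitochondrial members, which assemble the mitochondrial ribosome, were lower. Ddx28 was at 18.9, 16.4 and 18.2 FPKM in WT and 14.2, 14.6 and 13.4 in KO, with no overlap (log2 change -0.32, SE 0.06, adjusted p = 0.00240). Dhx30 was at 3.17, 3.26 and 3.42 FPKM in WT and 1.94, 2.25 and 2.28 in KO, also apart (log2 change -0.44, SE 0.08, adjusted p = 0.00120). Of the remaining class, of DNA helicases, interferon-induced genes and genes without an assigned role, 1 of 4 tested was lower and 3 did not pass. Ddx11, a DNA helicase needed for cohesion of sister chromatids, was at 3.53, 3.26 and 3.28 FPKM in WT and 0.923, 0.994 and 1.45 in KO (log2 change -1.04, SE 0.11, adjusted p = 7.06e-05). Dhx32, the most abundant of this class by its mean over the 6 libraries, was at 3.34, 2.56 and 3.30 FPKM in WT and 3.24, 2.38 and 3.22 in KO, with overlapping groups. Dhx40 and Ddx59 did not pass either, and all 3 had log2 changes between -0.07 and -0.04. With libraries rescaled to equal sums Dhx32 (-0.40), Dhx40 (-0.36) and Ddx59 (-0.31) were called lower, so that all 4 tested of this class were. The share of all tested genes called lower was 40.4% as deposited and 59.1% rescaled.

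Members too weak to test included those of the germline. Ddx4, the germ cell helicase Vasa, was at 0.166, 0.116 and 0.199 FPKM in WT and 0, 0 and 0.0271 in KO, or 20 reads against 1. Scaled by the library totals implied by the FPKM values, the ratio was 16.5 with a 95% exact counting interval of 2.64 to 685. Ddx43 had 4 reads, all in WT replicate 2, and Ddx25 was at 0 in all libraries. Ddx60, induced by interferon, had 1 read in all 6 libraries. Ddx26b was at 0.653 FPKM in WT and 1.03 in KO, Dhx57 at 0.483 and 0.453, and Dhx58os at 0. Together with Dhx33, Ddx23, Dhx9, Dhx36 and Ddx3y these make up the 12 members not tested.

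**Figure D4:**
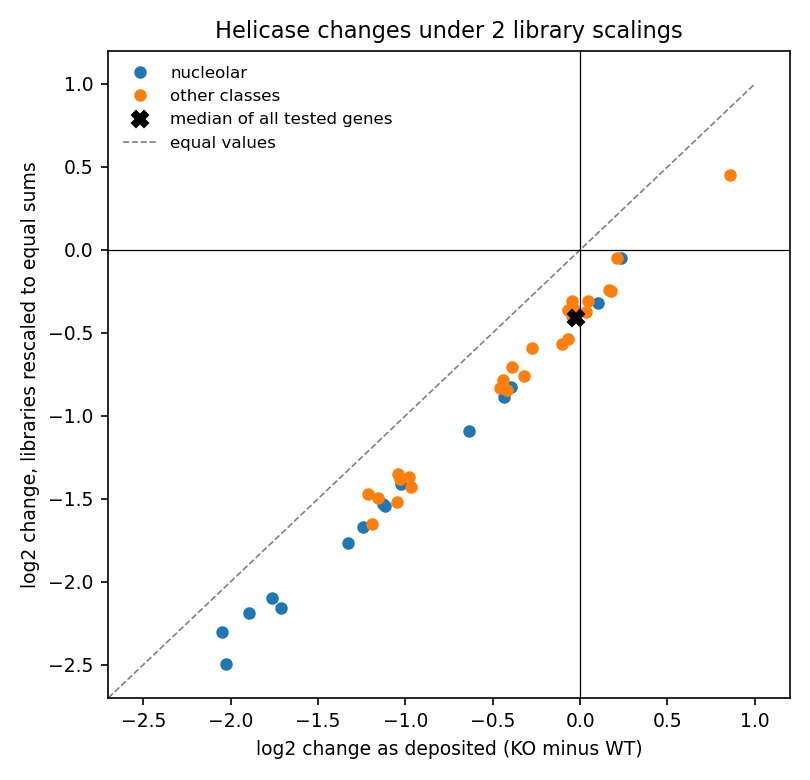
Log2 change of the 41 tested helicase genes as deposited (horizontal) and with libraries rescaled to equal sums (vertical), nucleolar genes in blue and the others in orange, with the median of all tested genes as a cross and equal values as a dashed line. All points lie below the dashed line, and Ddx17, at 0.86 and 0.45, is the point above 0 on both axes.

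Named by family, 23 of 30 tested Ddx genes were lower and 1 was higher (median log2 change -0.98), while 5 of 11 tested Dhx genes were lower and 1 was higher (median -0.07). Rescaling to equal sums gave 28 lower and 1 higher for Ddx and 10 lower and 0 higher for Dhx. Of all tested genes, 40.4% were lower as deposited and 59.1% with rescaling. The difference between the families was not tested. In summed levels, Ddx genes went from 1071 to 552 FPKM and Dhx genes from 42.0 to 34.6.

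Related helicases under other names were 8 in the table, of which 7 were tested. Of these 4 were lower, 1 was higher and 2 did not pass (median log2 change -0.18, rescaled -0.58). The shares over all tested genes were 40.4% lower and 38.0% higher. Eif4a1, the translation initiation helicase, was at 192, 199 and 203 FPKM in WT and 184, 181 and 186 in KO (log2 change -0.11, adjusted p = 0.00733). Eif4a3, the core of the exon junction complex, was at 198, 203 and 208 FPKM in WT and 118, 126 and 117 in KO, with groups far apart (log2 change -0.75, adjusted p = 9.19e-07). Skiv2l2, the helicase of the nuclear exosome, fell from 12.7 to 6.59 FPKM (log2 change -0.85, adjusted p = 5.30e-05), whereas Skiv2l, its cytoplasmic relative, rose from 4.51 to 8.38 FPKM (0.77, adjusted p = 3.32e-05; rescaled 0.36). Supv3l1, of mitochondrial RNA turnover, fell from 6.18 to 4.50 FPKM (-0.39, adjusted p = 0.0142). Eif4a2 (2.78 and 3.03 FPKM) and Snrnp200 (3.44 and 2.92 FPKM), the U5 helicase, did not pass as deposited, though rescaling made both lower calls (-0.26 and -0.54). Snrnp200 was also called lower by limma-voom on recovered reads (-0.24, adjusted p = 0.0395). Ascc3 (0.784 and 1.15 FPKM) was not tested.

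Of 16 tested G-patch proteins, activators of DEAH box helicases, 7 were lower, 3 were higher and 6 did not pass (median log2 change -0.05, rescaled -0.47), beside 40.4% lower and 38.0% higher of all tested genes. Gpatch4, a nucleolar protein, fell from 29.0 to 8.85 FPKM (log2 change -1.61, adjusted p = 1.12e-06) and Gpkow, of the spliceosome, from 5.85 to 1.51 (-1.45, adjusted p = 2.37e-05). Nkrf, which reached the minimum through KO, rose from 0.461 to 1.57 FPKM (0.82, adjusted p = 5.71e-05) and Gpatch11 from 11.7 to 15.5 (0.38, adjusted p = 0.000694), the latter not called with libraries rescaled to equal sums. Of 33 tested partners and activators of DEAD box helicases, 24 were lower, 4 were higher and 5 did not pass (median -0.49, rescaled -0.95). Gemin8, which binds in the SMN complex of Ddx20 and reached the minimum through WT, fell from 6.32 to 0.502 FPKM (-2.29, adjusted p = 6.78e-07) and Eif4b, the activator of eIF4A, from 33.9 to 13.2 (-1.30, adjusted p = 1.16e-07). Gemin7 rose from 92.2 to 134 FPKM (0.54) and Cnot1, a scaffold that activates Ddx6, from 2.73 to 4.21 (0.48), and neither was called with libraries rescaled to equal sums.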

How the data were processed

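Per the labels' protocols, RNA from cells sorted into Trizol was amplified by Smart-seq2, made into Nextera XT libraries and read on a NextSeq 500. Per the submitters' processing notes, CASAVA, bcl2fastq, STAR 2.5.3a, the mm10 build and DESeq2 1.18.1 were used. The authors deposited FPKM values for 47643 genes; the sources used here do not give the counter, annotation, strand or handling of multimapped reads. The library totals implied by the FPKM values lay above the recovered reads in every WT library and below them in every KO library. At a gene length of 1 kb, 1 read stood for 0.0787 FPKM in WT replicate 1 and 0.0782 in KO replicate 1. These libraries held 11390516 and 13872904 recovered reads. The deposited values were therefore not scaled by recovered reads alone, and whether they were already normalized between libraries was not tested. A rescaling to equal sums was also tried, which replaces the deposited scaling. Rescaled values depend on all other transcripts of a library. Transcripts that are far higher in KO, such as S100a8 (205 FPKM in WT and 52072 in KO), lower the rescaled values of all others there. Which scaling is nearer to the RNA of the cells was not tested.

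The 9108 genes averaging 1 FPKM or more were tested with limma 3.58.1 (R 4.3.3) on values transformed as log2(FPKM + 1), with a mean-variance trend, two-sided, Benjamini-Hochberg adjustment over all of them and a threshold of 0.05. The test was also tried on simulated data in which few genes changed, in random directions. It was therefore not checked under changes as widespread as those here. Tables used pandas 2.3.3, numpy 2.4.6 and scipy 1.17.1, and figures matplotlib 3.10.9, under Python 3.11.15. Nothing in the labels says that the 3 libraries a genotype came from separate mice, so p-values measure only how these libraries vary, which may be technical variation. Replicates of a group differed by more than counting noise (chi-square per degree of freedom 2.72 to 3.39), so none was a repeat deposit.

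Whole reads were recovered from FPKM for 100.0% of the 21132 genes above 0, within 0.001 of a whole number, 16481 at the exonic length of GENCODE M21 and 4651 at a searched length of 20 to 100000 bases, where the number is the smallest that fits. They served for depth, the interval, the limits at 3 reads and 1 alternative. Without molecular identifiers PCR copies count repeatedly, so intervals and limits cover counting error alone. Positions and overlaps came from GENCODE M21 and promoters from RefSeq.

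The members, their classes, the partner and marker lists and the rule for named genes were chosen with earlier results of these data known. The rule names every library's value for nucleolar members, for 5 pairs of paralogues, and for the largest rise, the largest fall and the most abundant member of each other class; related helicases; and the 2 largest rises and falls of each partner list. Other choices tried were the pseudocount, the minimum, scaling, trend, replicate block, each library left out and limma-voom on recovered reads.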

Additional observations from a re-analysis of the deposited data

How the results depend on the processing

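Of the 30 called members, 27 kept their call and direction in every one of the 14 alternatives in which they were tested. The others were Ddx39b, Dhx37 and Dhx34. With libraries rescaled to equal sums 2074 of all genes were higher, the nucleolar class had a median of -1.54 with 0 higher, the other classes -0.65 with 24 lower, and Ddx54 (-0.32), Dhx37 (-0.050), Dhx16 (-0.24), Dhx38 (-0.37), Ddx3x (-0.25), Dhx29 (-0.31) and Ddx6 (-0.050) changed sign. A pseudocount of 0.1 gave medians of -1.27 (nucleolar) and -0.37 (other), and limma-voom on recovered reads gave -1.29 and -0.37, with 3 others higher. The limma-voom run used the library totals implied by the FPKM values, so it keeps the deposited scaling and cannot check it. A minimum mean of 5 FPKM tests fewer genes, and only 23 members, so its counts have a smaller base than those of the main test. It gave 2383 of all genes lower and 2072 higher, 7 others lower and a median of -0.21 for the others. It gave 0 nucleolar higher, but Dhx37, at a mean of 1.53 FPKM, was not tested there. No minimum, which tests the 21132 genes above 0, gave 5769 of them lower, 0 nucleolar higher and a median of -0.087 for the others. Quantile normalization gave 0 nucleolar higher, a nucleolar median of -1.10 and 2 others higher, and no mean-variance trend also gave 2 others higher.

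Replicate numbers did not pair the libraries: same-number correlations of deviations were 0.0095, -0.012 and -0.017. The replicate block gave 13 nucleolar lower and 0 higher, and 14 others lower and 1 higher. Leaving out 1 library at a time gave 0 to 1 nucleolar higher, 1 to 3 others higher, a nucleolar median of -1.18 to -1.12 and a median of -0.33 to -0.27 for the others; the count of 3 came without WT replicate 2, with Dhx16 and Ddx3x also called. The cause of these moves was not tested, and the number of libraries, 3 a genotype, limits the precision for weak members.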
